A study of Mus musculus with 6 samples.

Results

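Smcp, Odf1, Akap4, Meig1, Spata19, Crisp2, Adam3, Capza3, Cetn1 and Fabp9, 10 genes of the mature sperm cell, were followed library by library in fetal ovary RNA. They were chosen by symbol as parts of the sperm flagellum, head and acrosome, and all 10 matched 1 row each among the 48709 genes of the count table. The choice was made with earlier results of these libraries in view, in which such genes were lower after exposure, so their difference between the groups is given as a description and without a test. Ovaries of wild-type CD1 mouse embryos were collected at 13.5 dpc from dams dosed by gavage from 10.5 dpc. The exposed dams received acetaminophen (APAP, 30 mg/kg per day) and ibuprofen (IBU, 15 mg/kg per day), given in alternation 4 times every 3 h, and the control dams received ethanol, the diluent that the exposed dams received too. Each of the 3 control and 3 APAP+IBU libraries was made from its own pool of gonads of several embryos, so a library averages over embryos and the p-values measure the spread between pools.

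Sperm are built from round haploid cells in the adult testis, in a process called spermiogenesis. The flagellum grows from a centriole and is wrapped by mitochondria in the midpiece and by outer dense fibres and a fibrous sheath along the tail, while the acrosome, a secretory vesicle, forms over the head and carries proteins for fertilisation. Many genes of these structures, though not all, are known for strong and largely restricted transcription in haploid male germ cells, which a fetal ovary does not contain. A fetal ovary at this stage holds germ cells that enter meiotic prophase, supporting cells and stroma.

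The library totals ran from 37811968 to 48954631 counts. Levels are given as CPM, counts per 1000000 after TMM scaling, which corrects library totals for differences in composition. The fetal ovary markers were present in all libraries, with 1781 to 2289 summed CPM over 12 genes, among them Ddx4 and Dazl of germ cells and Foxl2 and Wnt4 of supporting cells. Replicate 3 of each group stood apart in liver genes, whose summed level over 10 genes reached 1945 CPM (control) and 3154 CPM (APAP+IBU) there and ran from 191 to 554 CPM elsewhere. Control replicate 2 stood apart in Y-linked genes, where 8 genes summed to 9.91 CPM, and the remaining libraries had sums of 2.33 to 3.12 CPM.

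RefSeq promoter windows on GRCm38.p6 were found for Smcp, Meig1, Spata19, Crisp2 and Akap4, and the 250 bases before the start are printed for 3 of them because these 3 had the highest mean CPM of the 10 genes in control ovaries. Capitals mark the TATA motif TATAAA on either strand, and each sequence is written on the strand of its gene. The windows are chr3:92589074-92589323 (minus strand) for Smcp, chr2:3422649-3422898 (minus strand) for the outermost of 3 Meig1 starts and chr17:40794147-40794396 (minus strand) for Crisp2.
Smcp: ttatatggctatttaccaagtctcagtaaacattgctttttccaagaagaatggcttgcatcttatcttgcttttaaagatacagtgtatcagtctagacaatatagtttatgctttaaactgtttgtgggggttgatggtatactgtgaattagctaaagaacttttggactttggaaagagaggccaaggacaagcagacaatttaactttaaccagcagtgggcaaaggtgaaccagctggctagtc
Meig1: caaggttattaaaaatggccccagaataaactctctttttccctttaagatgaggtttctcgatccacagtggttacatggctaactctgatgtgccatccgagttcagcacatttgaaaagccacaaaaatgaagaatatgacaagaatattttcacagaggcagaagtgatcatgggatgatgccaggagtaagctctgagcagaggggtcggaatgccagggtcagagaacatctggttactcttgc
Crisp2: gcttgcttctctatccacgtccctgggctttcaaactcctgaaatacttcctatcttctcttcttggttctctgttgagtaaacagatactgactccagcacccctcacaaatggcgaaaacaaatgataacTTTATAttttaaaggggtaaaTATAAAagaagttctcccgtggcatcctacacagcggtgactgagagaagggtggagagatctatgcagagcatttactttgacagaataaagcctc
The Crisp2 window belongs to a start inside the gene as annotated by GENCODE. In the 9 windows of the 5 genes, motif matches were found in Crisp2 and Meig1 only. Crisp2 held TATAAA 97 bases before its start and the same motif on the other strand 118 bases before it, and 12.4% of the 32851 windows in the RefSeq table held it. A TGACG match (the core of the cAMP response element, searched as TGACG or CGTCA) lay 134 bases before the innermost Meig1 start, and 17.8% of all windows held one. The whole element TGACGTCA, held by 1.55% of all windows, and GTTGCC or GGCAAC, held by 10.4%, were not found in these windows. These matches are descriptions of the letters in these windows only.

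All 10 genes were detected in every control library, and for each the highest APAP+IBU library lay below the lowest control library. Such an absence of overlap was found in 5.92% of the 20167 tested genes in this direction and in 4.78% in the other, and since the genes were chosen on this contrast nothing is read from the count. Their summed level was 48.7, 17.1 and 18.2 CPM in control replicates 1, 2 and 3, and 1.85, 0.983 and 1.61 CPM in APAP+IBU replicates 1, 2 and 3. The lowest control library thus stood 9.22 times above the highest exposed library. The median log2 fold change of the 10 genes was -4.38, beside -0.0047 for all tested genes, and without control replicate 1 it was -3.61. In this bulk RNA, fewer cells that carry these transcripts and less of the RNA per cell cannot be told apart. Whether the transcripts came from cells of the ovary at all, or from RNA of another source such as adult testis in the control libraries, was not tested, so each level given here for control ovaries is the level in those libraries. All 10 genes passed the expression filter, and did so through their control libraries, so the filter itself kept genes that differ.

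**Figure D1:**
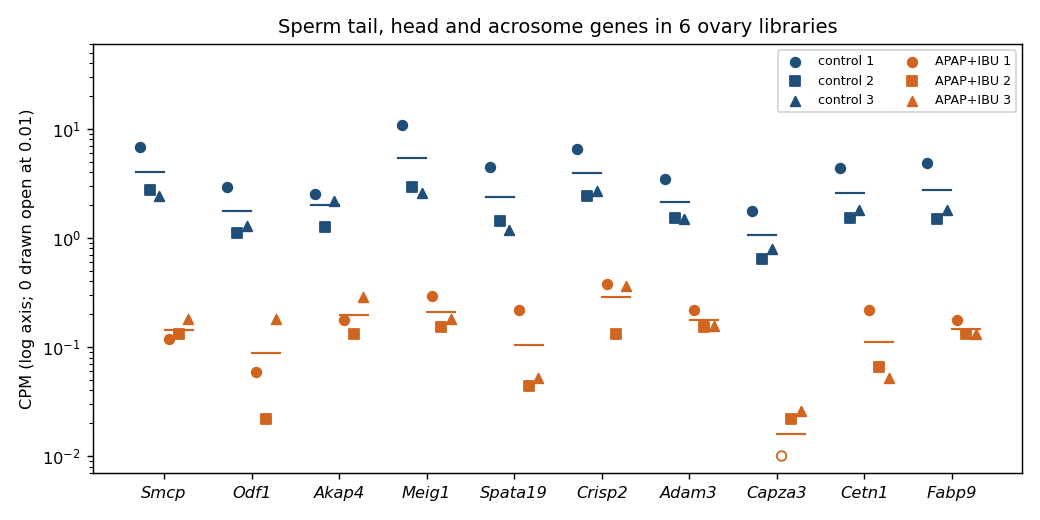
Level of each gene in CPM on a log axis, by library (blue, control; orange, APAP+IBU; symbol, replicate; short line, mean of 3 libraries; the open symbol is a level of 0). Every blue symbol lies above every orange symbol of the same gene, and control replicate 1 is the highest library for all 10 genes.

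Smcp and Spata19 belong to the midpiece, where the mitochondria lie. Smcp (ENSMUSG00000074435; GRCm38 chromosome 3, 92583867 to 92588997), which encodes a cysteine-rich protein of the sperm mitochondrial capsule and whose promoter is printed above, had 6.87, 2.76 and 2.42 CPM in control replicates 1, 2 and 3. In APAP+IBU replicates 1, 2 and 3, Smcp had 0.118, 0.131 and 0.182 CPM, or 6, 6 and 7 counts. Its groups lay far apart, and the pooled level was 28.1-fold higher in controls (exact 95% interval 17.8 to 47.1, for counting error only). The log2 fold change of Smcp was -4.79, and -4.16 without control replicate 1. Spata19 (ENSMUSG00000031991; chromosome 9, 27396800 to 27401785), a gene of a mitochondrial protein of the midpiece, had 4.51, 1.42 and 1.17 CPM in controls. In exposed ovaries Spata19 had 0.217, 0.0437 and 0.0521 CPM, the latter 2 from 2 counts each. Exposed replicate 1 was the highest of the exposed libraries for Spata19, and the log2 fold change of -4.41 was -5.56 without it and -3.55 without control replicate 1.

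Odf1 and Akap4 encode the structural proteins of the principal parts of the tail. Odf1 (ENSMUSG00000061923; chromosome 15, 38219203 to 38226735), a main protein of the outer dense fibres, had 2.91, 1.10 and 1.29 CPM in controls and 0.0591, 0.0218 and 0.182 CPM in exposed ovaries. Exposed replicate 3 was the highest exposed library for Odf1 with 7 counts, and without it the log2 fold change of -4.35 was -5.35. Akap4 (ENSMUSG00000050089; chromosome X, 7067519 to 7078609), which encodes the main protein of the fibrous sheath and anchors protein kinase A there, had 2.54, 1.26 and 2.19 CPM in controls. In exposed ovaries Akap4 had 0.177, 0.131 and 0.286 CPM. It differed least of the 10 genes, with a log2 fold change of -3.33 and its highest exposed library at 22.8% of its lowest control library, and it was the gene for which control replicates 1 and 3 were closest (1.16-fold).

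Meig1 and Cetn1 act in the assembly of the tail. Meig1 (ENSMUSG00000026650; chromosome 2, 3409043 to 3422648), whose product is needed for building the flagellum, had 10.8, 2.92 and 2.58 CPM in controls and 0.296, 0.153 and 0.182 CPM in exposed ovaries. The spread between control libraries was widest for Meig1, with control replicate 1 at 4.20 times control replicate 3. Its log2 fold change of -4.66 was -3.68 without control replicate 1. Cetn1 (ENSMUSG00000050996; chromosome 18), the testis form of centrin, a calcium-binding protein of centrioles and basal bodies, had 4.35, 1.53 and 1.80 CPM in controls and 0.217, 0.0655 and 0.0521 CPM in exposed ovaries. As for Spata19, exposed replicate 1 was the highest exposed library, with 11 counts against 3 and 2. The log2 fold change of Cetn1 was -4.43, and it was -5.37 without exposed replicate 1 and -3.81 without control replicate 1.

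Crisp2, Adam3, Capza3 and Fabp9 belong to the head, the acrosome or the sperm surface. Crisp2 (ENSMUSG00000023930; chromosome 17, 40764020 to 40807003), a cysteine-rich secretory protein of the acrosome and the tail, had 6.58, 2.44 and 2.67 CPM in controls. In exposed ovaries Crisp2 had 0.375, 0.131 and 0.364 CPM, or 19, 6 and 14 counts, the most counts of any of the 10 genes after exposure. Its log2 fold change was -3.74, and -3.13 without control replicate 1. Adam3 (ENSMUSG00000031553; chromosome 8, 24677225 to 24725852), a membrane protein that sperm need to pass into the oviduct, had 3.44, 1.53 and 1.50 CPM in controls and 0.217, 0.153 and 0.156 CPM in exposed ovaries. Its log2 fold change was -3.59. Adam3 was close to even among the exposed libraries, and control replicates 2 and 3 did not differ beyond a few percent.

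Capza3 (ENSMUSG00000041791; chromosome 6, 140041252 to 140042778), the testis form of the alpha subunit of the actin capping protein, lies in 1 exon and had 1.76, 0.643 and 0.783 CPM in controls. In exposed ovaries it had 0, 1 and 1 counts. It was the lowest of the 10 genes in CPM in both groups, and its pooled level was 70.9-fold higher in controls with an exact 95% interval of 19.2 to 592 for counting error, so its log2 fold change of -5.89 is poorly fixed. Fabp9 (ENSMUSG00000027528; chromosome 3, 10193621 to 10197283), a fatty acid binding protein of the perinuclear theca of the sperm head, had 4.90, 1.50 and 1.82 CPM in controls and 0.177, 0.131 and 0.130 CPM in exposed ovaries. Its log2 fold change of -4.19 was -3.47 without control replicate 1.

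Per length of exonic sequence, Meig1 was the highest in control ovaries at 4.94 ± 4.24 CPM per kb (SD, n = 3), followed by Smcp at 4.40 ± 2.72 and Fabp9 at 4.22 ± 2.90. A step then led to Cetn1 at 1.85 ± 1.13, Spata19 at 1.62 ± 1.28, Odf1 at 1.60 ± 0.902 and Crisp2 at 1.38 ± 0.827 CPM per kb. Adam3, Capza3 and Akap4 were lowest, at 0.732 ± 0.378, 0.695 ± 0.398 and 0.660 ± 0.219 CPM per kb. For all 9 pairs of neighbours in this order, the ranges of the 3 control libraries overlapped. Fabp9 was nonetheless above Cetn1 in 3 of 3 control libraries, as were Cetn1 above Spata19, Odf1 above Crisp2 and Crisp2 above Adam3.

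Control replicate 1 was the highest of the 6 libraries for all 10 genes, as it was for 29% of all tested genes. For 9 of the 10 genes it was at least 2 times as high as both other control libraries, and 2.45% of the tested genes met this limit. The exception was Akap4. The ratio of control replicate 1 to control replicate 2 ran from 2.02 (Akap4) to 3.71 (Meig1), with a median of 2.72. Between control replicates 2 and 3 the order varied, and 6 of the 10 genes were higher in control replicate 3.

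The share of each gene in the summed count of the 10 genes, a measure that does not depend on the height of the whole group, had overlapping intervals between libraries for most genes. The sum was 1857, 638 and 791 counts in control replicates 1, 2 and 3 and 201 counts over the 3 exposed libraries together. The shares are given with exact Clopper-Pearson 95% intervals, which cover counting error only. Smcp made up 14.1% (12.6 to 15.8), 16.1% (13.4 to 19.2) and 13.3% (11.0 to 15.8) of the sum in control replicates 1, 2 and 3, and 9.45% (5.79 to 14.4) in the exposed libraries. Crisp2 made up 13.5%, 14.3% and 14.7% in controls and 19.4% (14.2 to 25.6) after exposure. These intervals overlapped for both genes.

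Between control replicates 1 and 2 the intervals overlapped for 9 of the 10 genes, between 1 and 3 for 8, and between 2 and 3 for 9. Between the summed control and the summed exposed libraries they overlapped for 9. Meig1 took 22.2% (20.4 to 24.2) of the sum in control replicate 1, above the 17.1% (14.2 to 20.2) of control replicate 2 and the 14.2% (11.8 to 16.8) of control replicate 3. Akap4 took 5.22% (4.26 to 6.34) in control replicate 1 and 7.37% (5.46 to 9.68) in control replicate 2, but 12.0% (9.83 to 14.5) in control replicate 3 and 12.9% (8.63 to 18.4) after exposure. With 201 counts in all, the exposed shares are broad, and the data could not show differences within their intervals.

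**Figure D2:**
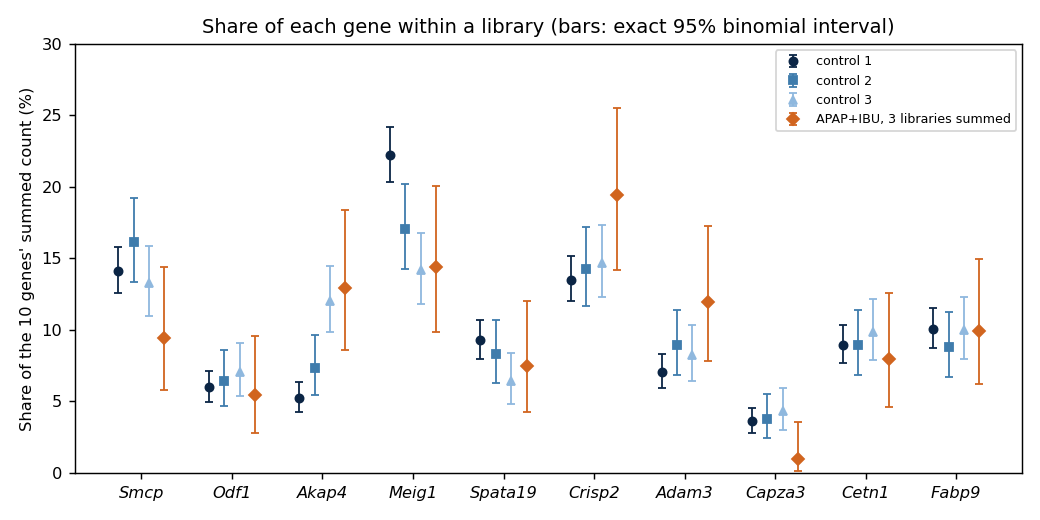
Share of each gene in the summed count of the 10 genes (percent), for each control library and for the 3 APAP+IBU libraries summed; bars are exact 95% binomial intervals. The intervals of control replicates 1 and 3 are apart for Meig1 and Akap4, and those of the other 8 genes overlap among the control libraries.

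Other genes of the same structures were taken from 3 lists of the tail, the acrosome and sperm surface, and the head, which hold 64 measured genes besides the 10. These lists and those below were also chosen with earlier results of these data known. Some of their genes, such as Acrv1, passed the expression filter through their control libraries. Counts of their genes are therefore a description, and nothing is read from an excess over the shares of all genes. In the quasi-likelihood test of edgeR, adjusted over all 20167 genes by the Benjamini-Hochberg procedure, 0 of the 47 tested genes passed 0.05, as did 0% of all tested genes. At an unadjusted p under 0.05, 24 of the 47 were lower and 2 higher, beside 3.21% and 3% of all tested genes (6.22% in either direction). DESeq2 called 13 lower and 0 higher at an adjusted p under 0.05, beside 0.858% and 0.0943% of all genes it adjusted. The median log2 fold change of the 47 genes was -1.09. In 27 of the 64 genes the groups did not overlap and the mean was at least 4-fold lower, and 14 of these 27 were among the tested genes, where the background for this limit was 0.917%.

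Among the tail genes, 9 of 25 met this limit. Ropn1, of a fibrous sheath protein that binds Akap proteins, had 1.41 ± 1.03 CPM (SD, n = 3) in controls and 0.126 ± 0.0719 in exposed ovaries, with a log2 fold change of -3.45 (adjusted p = 0.175 in edgeR's test). Tekt4, of a tektin filament along the axoneme, had a log2 fold change of -4.41 (adjusted p = 0.233), and Oaz3, a testis antizyme, one of -2.80 (adjusted p = 0.103). Fsip2, Spata18, Odf4, Odf3, Catsper4 and Catsper1 completed the 9, and Catsper1, of the sperm calcium channel, was at 0 counts in all exposed libraries against 20 counts over the controls (at least 7.57-fold higher in controls, against a floor of 3 counts over the group). By contrast, Odf2, whose product is also part of ordinary centrioles, had 127 ± 9.20 CPM in controls and 124 ± 10.8 CPM in exposed ovaries (adjusted p = 0.916).

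Among the acrosome and surface genes, 7 of 24 met the limit, namely Acrv1, Spata16, Adam2, Spaca3, Spaca4, Izumo3 and Pdilt. Acrv1, an acrosomal protein, had a log2 fold change of -4.83 (adjusted p = 0.190) and Spata16, needed for acrosome formation, one of -4.03 (adjusted p = 0.156). Adam2, a surface partner of the Adam3 protein, had 0.705 ± 0.462 CPM in controls and 0.119 ± 0.0497 CPM in exposed ovaries. Among the head genes, 11 of 15 met it, with the actin-related genes Actl7a, Actl7b, Actl9, Actrt1 and Actrt2, the calyx genes Cylc1, Cylc2 and Ccin, and Sun5, Spata20 and Tssk2. Actl7b had a log2 fold change of -4.42 (adjusted p = 0.154) and Actl7a one of -4.25 (adjusted p = 0.175). Sun5, which couples head and tail, was at 0 counts in all exposed libraries against 34 over the controls (at least 12.9-fold, by the same floor).

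Of the 19 genes with a mean of at least 2 CPM over all libraries, 1 met the 4-fold limit (Oaz3), and of the 45 below it 26 did. This mean includes the exposed libraries, so the split is not independent of the difference between the groups. The acrosome and surface genes Tex101 (131 ± 39.8 CPM in controls, 154 ± 49.5 in exposed ovaries), Acrbp (8.40 ± 1.99 and 6.68 ± 1.13) and Spaca1 (4.39 ± 0.763 and 4.37 ± 0.678) overlapped between the groups. Calr3 of the same list had a log2 fold change of 0.05. The groups also overlapped for Hook1, a microtubule-linked protein that shapes the sperm head, at 68.3 ± 18.4 and 88.4 ± 7.32 CPM, and for Spag4 of the head list (log2 fold change -0.09). Tssk1 of the head list was lower without overlap, with a log2 fold change of -0.83 (unadjusted p = 0.033, adjusted p = 0.692 in edgeR's test). Zpbp of the acrosome and surface list was higher without overlap, at 2.47 ± 0.265 CPM in controls and 4.26 ± 0.984 CPM in exposed ovaries. Its log2 fold change was 0.78 (unadjusted p = 0.016, adjusted p = 0.692 in edgeR's test). Of the other highest tail genes, Tsga10, Spa17 and Catsper2 had log2 fold changes of 0.59, -0.89 and 0.39 and overlapping groups. Their unadjusted p in edgeR's test was 0.037, 0.016 and 0.173. Of the 27 genes that met the limit, 23 were highest in control replicate 1.

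**Figure D3:**
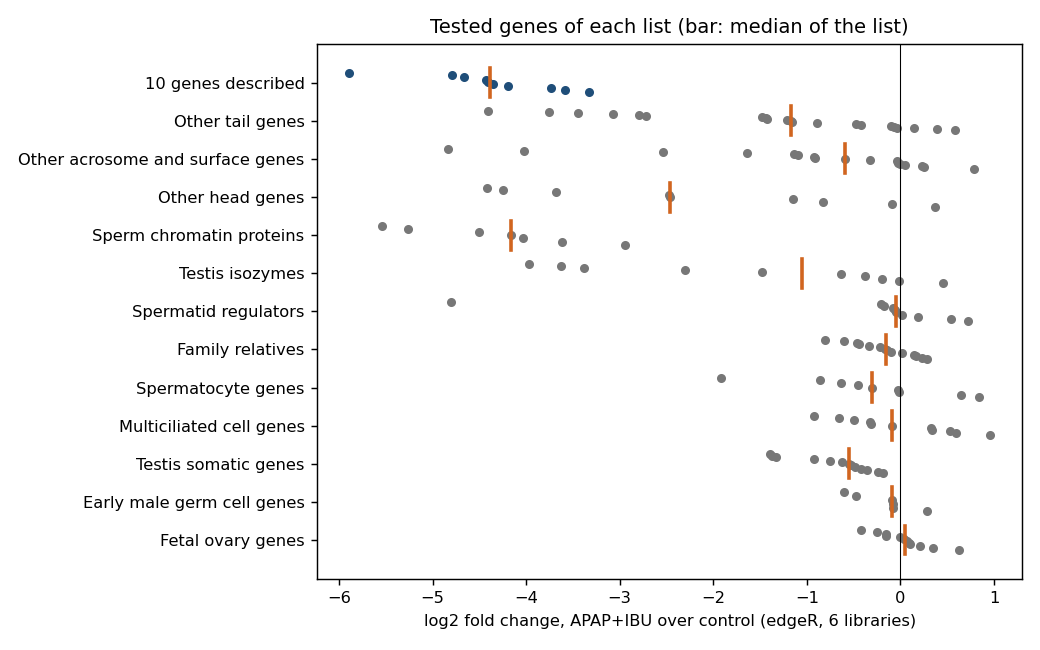
Log2 fold change of APAP+IBU over control ovaries from edgeR's fit to 6 libraries, 1 point per tested gene, by list, with the median of each list as a bar. The 10 genes lie from -5.89 to -3.33, the sperm chromatin proteins from -5.54 to -2.94, and the fetal ovary genes around 0.

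Sperm chromatin proteins, which pack the DNA of the sperm head, had the lowest median of the other lists (-4.16, and -3.23 without control replicate 1). The 7 chromatin genes were the protamine genes Prm1, Prm2 and Prm3, the transition protein genes Tnp1 and Tnp2 and the linker histone genes H1fnt and Hils1. In all 7 every exposed library lay below every control library, beside 5.92% of all tested genes. Their log2 fold changes ran from -5.54 to -2.94. Beside 3.21% of all tested genes lower at an unadjusted p under 0.05 in edgeR's test and 0.858% lower in DESeq2, all 7 were lower by both. In edgeR's test 0 of the 7 had an adjusted p under 0.05. Their summed level stood at 2.34, 1.92 and 1.55 times that of the 10 genes in control replicates 1, 2 and 3, and at 2.57, 1.42 and 1.19 times in the exposed libraries, so this ratio overlapped between the groups. Of 10 testis isozymes of energy metabolism, Pgk2, Gapdhs, Gk2 and Ldhc met the 4-fold limit, which 0.917% of all tested genes met. Their log2 fold changes were -3.97, -3.38, -3.63 and -2.30. Without overlap of the groups, 5 of the 10 isozymes were lower and 1 was higher, beside 5.92% and 4.78% of all tested genes. Cox6b2, Cyct and Pdha2 had log2 fold changes of -0.19, -0.38 and -0.01, and Cyct was lower without overlap.

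Somatic relatives of the 10 genes were measured beside them. Of 17 relatives, 0 of the 14 tested had an unadjusted or an adjusted p under 0.05, and DESeq2 called 0. Capza2 and Capzb, the alpha and beta subunits of the actin capping protein in most cells, had 142 ± 18.2 and 182 ± 22.9 CPM in controls and 144 ± 5.19 and 169 ± 11.7 CPM in exposed ovaries. The metalloprotease genes Adam10 and Adam17 had log2 fold changes of 0.17 and 0.14. Every exposed library lay below every control library for 4 of the 17 relatives. Among the 14 tested these were 3, beside 5.92% of all tested genes, namely Cetn2, Cetn3 and Fabp7. Their log2 fold changes were -0.22, -0.15 and -0.47. By the 4-fold limit Fabp12, a gene of the same family as Fabp9, was the only one, with 26, 9 and 8 counts in controls and 1, 0 and 0 in exposed ovaries. It was too low for the test.

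Among 10 regulators of the spermatid programme, Fhl5 alone was lower by the 4-fold limit, which 0.917% of all tested genes met. Fhl5, a coactivator of Crem, had 1.68, 0.803 and 0.829 CPM in controls and 0.0394, 0.0655 and 0 CPM in exposed ovaries (log2 fold change -4.80, adjusted p = 0.0906 in edgeR's test). Taf7l, Tbpl1, Brdt and Ybx2, which also act in other cells or in oocytes, had log2 fold changes of 0.54, -0.21, -0.17 and -0.06. Tbpl1 was lower without overlap, at 59.6 ± 3.85 CPM in controls and 51.7 ± 3.64 CPM in exposed ovaries. With Fhl5, 2 of the 10 regulators were lower without overlap, beside 5.92% of all tested genes. Of 11 pachytene spermatocyte genes, which overlap with those of fetal oocytes, 0 met the 4-fold limit, and DESeq2 called 1 lower (0.858% of all genes). Of the 9 tested, 2 were lower at an unadjusted p under 0.05 (0 at an adjusted one), beside 3.21% of all tested genes. These 2 were Tdrd6, at 1.64 ± 0.782 CPM in controls and 0.432 ± 0.147 CPM in exposed ovaries (log2 fold change -1.92, adjusted p = 0.326 in edgeR's test), and Pttg1 (-0.46). Tex14, Mael and Spdya, the other highest genes of the list, had log2 fold changes of -0.01, -0.03 and 0.84.

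Each gene was also set beside its nearest protein-coding gene on either side. Of these 20 neighbours, 14 passed the filter, and their median log2 fold change was 0.10, with 9 positive and 5 negative. In edgeR's test 0 had an adjusted p under 0.05, while DESeq2 called 1 in either direction. Of all genes that DESeq2 adjusted, 0.858% were called lower and 0.0943% higher. At an unadjusted p under 0.05 in edgeR's test 1 was lower and 2 were higher, beside 3.21% and 3% of all tested genes. The lower one was Adam5, a member of the same family 1.24 kb from Adam3, at 2.71 ± 0.933 CPM in controls and 0.875 ± 0.279 CPM in exposed ovaries (log2 fold change -1.63). The higher ones were Ccnb3 beside Akap4, a cyclin of meiotic germ cells, with a log2 fold change of 0.88, and Dclre1c beside Meig1, a DNA repair nuclease gene, with one of 0.71.

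Klf10 beside Odf1 (-0.03), Clcn5 beside Akap4 (0.10), Opcml beside Spata19 (-0.18), Rhag beside Crisp2 (0.22), Pik3c2g and Plekha5 beside Capza3 (0.09 and 0.17), Ccny and Colec12 beside Cetn1 (-0.02 and 0.09) and Fabp4 beside Fabp9 (-0.44) had log2 fold changes between -0.44 and 0.22 and overlapping groups. Igsf9b, on the other side of Spata19, was at 0.60 with groups that did not overlap. Ivl and 2210017I01Rik beside Smcp, Olah beside Meig1, Esp1 beside Crisp2, Adam18 beside Adam3 and Pmp2 beside Fabp9 were too low for the test. Adam18, another sperm surface gene of the family, had 0.231 CPM on average in controls and 0.0263 CPM in exposed ovaries.

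Capza3 overlaps Plcz1, the gene of the sperm phospholipase that activates the egg, on the opposite strand. Plcz1 had 26, 13 and 17 counts in controls and 3, 0 and 2 in exposed ovaries, and since the strand setting of the counting is not stated, reads of the pair cannot be assigned with certainty. Adam3 overlaps the unclassified gene Gm45528 on the opposite strand, which had 12, 10 and 33 counts in controls and 37, 36 and 19 in exposed ovaries. Fabp9 overlaps Gm37389 on the same strand, which had 0 counts in all libraries.

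**Figure D4:**
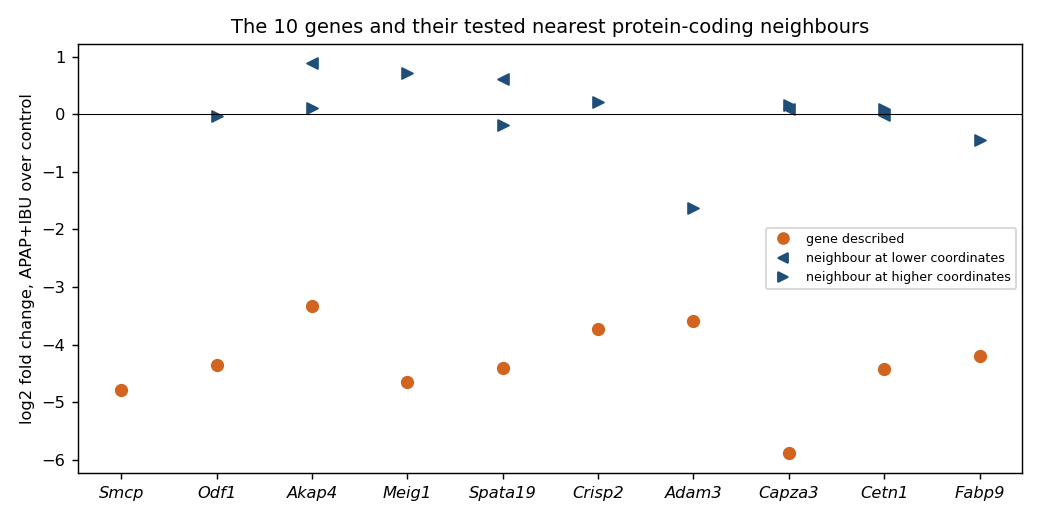
Log2 fold change of APAP+IBU over control ovaries for the 10 genes (circles) and 13 of their 14 tested nearest protein-coding neighbours (triangles, pointing to the side on which the neighbour lies). The neighbours lie between -1.63 (Adam5) and 0.88 (Ccnb3), and each of the 9 genes with a neighbour in the plot lies below it.

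The 10 tested genes most like the group were found by the Pearson correlation of log2 CPM with the mean of the 10 genes over the same 6 libraries, as a description. They were 1700001C19Rik, Pgk2, Nek6, Prr30, H2al2a, 1700008K24Rik, 1700001K19Rik, 1700024P04Rik, Spem2 and Rac1, with correlations from 0.993 to 0.999, and 177 of 20157 genes had one of at least 0.95. Pgk2, the testis form of phosphoglycerate kinase, had 3.02, 1.18 and 1.47 CPM in controls and 0.158, 0.0873 and 0.104 CPM in exposed ovaries. H2al2a, a histone variant of condensing spermatids, had 1.31, 0.482 and 0.714 CPM in controls and 0.0197, 0 and 0.026 CPM in exposed ovaries. 1700001K19Rik was at 0 counts in all exposed libraries and had 51 counts over the controls, at least 19.3-fold higher there against a floor of 3 counts over the group. Nek6, a kinase of mitosis, and Rac1, a GTPase of the cytoskeleton, also had groups that did not overlap, but with log2 fold changes of -0.21 and -0.23.

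Marker lists of other cell types were summed in each library, and the part of these cells in the result was not tested. Genes listed for testis somatic cells, 14 in number, summed to 192 to 283 CPM in controls and 161 to 204 CPM in exposed ovaries. The list also holds Dmrt1, which the paper places in female germ cells after sex determination. It holds Star and Cyp11a1 too, which the paper measured in adult ovaries. The sum is thus not a measure of testis somatic cells alone. The 13 tested genes of this list had log2 fold changes from -1.40 to -0.19. Their median was -0.55, beside -0.0047 for all tested genes. Of the 13, 3 had an unadjusted p under 0.05 in edgeR's test, beside 3.21% of all tested genes in this direction. By either tool 0 had an adjusted one. Rhox5 had the highest level in this list, at 111 ± 16.7 CPM in controls and 76.9 ± 8.41 CPM in exposed ovaries. The next highest, Dmrt1, Aard and Hsd3b6, had log2 fold changes of -0.48, -0.55 and -0.62. The Leydig cell marker Insl3, named after its values were seen, was at 9, 0 and 2 counts in controls and 4, 2 and 4 in exposed ovaries. These few counts do not stand for the list. Control replicate 1, highest for the 10 genes, was also highest in the sum of this list at 283 CPM, beside 282 CPM in control replicate 2. The same library was highest in the sums of the early male germ cell genes (101 CPM) and the multiciliated cell genes (38.6 CPM) given below.

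For Y-linked genes control replicate 2 was the highest library, and control replicate 1 (2.81 summed CPM) lay within the 2.69 to 3.12 CPM of the exposed libraries. Their 4 tested genes, Kdm5d, Eif2s3y, Ddx3y and Uty, had log2 fold changes from -1.41 to -0.24 with a median of -0.89, which was 0.12 without control replicate 2. The testis-determining gene Sry was at 0 counts in all 6 libraries. Early male germ cell genes summed to 62.3 to 101 CPM in controls and 63.1 to 71.1 CPM in exposed ovaries, with a median log2 fold change of -0.09, and their highest genes Uchl1, Ret, Id4 and Gfra1 had log2 fold changes of -0.60, -0.09, -0.08 and 0.28. Multiciliated cell genes, which share the axoneme with sperm, summed to 23.9 to 38.6 CPM in controls and 26.2 to 29.9 CPM in exposed ovaries, their median log2 fold change was -0.09 (0.23 and 0.22 without APAP+IBU replicates 2 and 3), and the ciliary gene Sntn was at 0 counts in all libraries. Erythroid genes were lower on average after exposure, with a median log2 fold change of -1.04 over 8 genes. Of these, 3 were lower at an unadjusted p under 0.05 in edgeR's test (3.21% of all tested genes), and DESeq2 called 1 lower (0.858% of all). Control replicate 1 had the lowest erythroid sum of the controls. Liver genes, high in replicate 3 of both groups, had a median log2 fold change of 0.44. It was -1.63 without APAP+IBU replicate 3 and 1.70 without control replicate 3. The 10 genes summed to 1.61 CPM in APAP+IBU replicate 3, beside 1.85 and 0.983 CPM in APAP+IBU replicates 1 and 2.

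**Figure D5:**
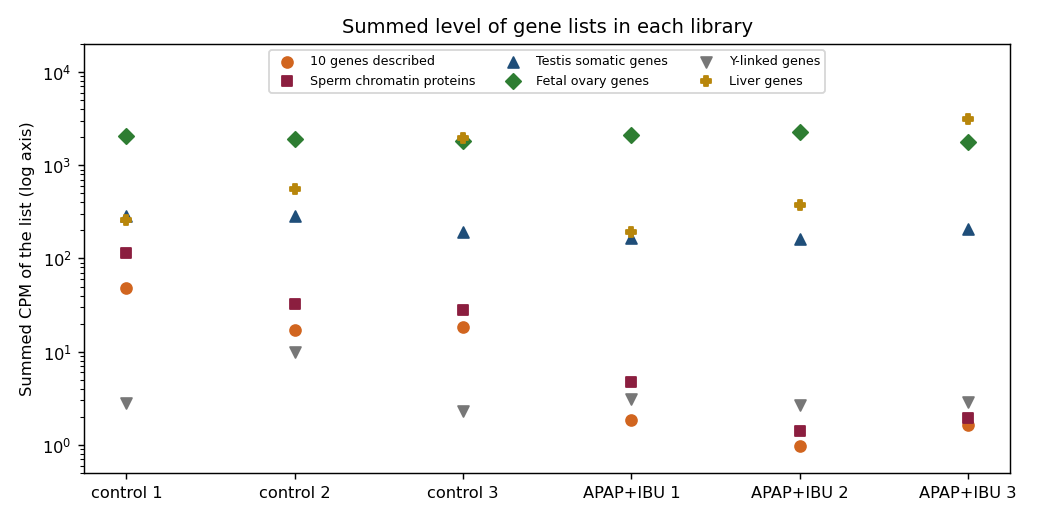
Summed CPM of gene lists in each library on a log axis, 1 symbol per list. The 10 genes and the sperm chromatin proteins are highest in control replicate 1 and lowest in the 3 exposed libraries, the Y-linked genes are highest in control replicate 2, and the liver genes in replicate 3 of each group.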

How the data were processed

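Polyadenylated RNA of 13.5 dpc ovaries was sequenced as stranded libraries in 3 control and 3 APAP+IBU pools. The authors mapped the reads to mm10 with TopHat2 2.0.14 and Bowtie2 2.1.0 and counted them per gene of Ensembl release 86 with HTSeq 0.6.1, and the deposited table holds raw counts without normalisation. The strand setting of the counting is not given in the sources used here. Groups were taken from the exposure labels. Sample titles of the exposed group mention only IBU, whereas their exposure label names both drugs.

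From the counts, the quasi-likelihood test of edgeR 4.0.16 (R 4.3.3) was run on all 6 libraries after TMM scaling. Its expression filter left 20167 of 48709 genes, and p-values were adjusted over them (Benjamini-Hochberg). The test was tried on simulated counts. DESeq2 1.42.0 without shrinkage was the alternative, beside other normalisations, other filters, a replicate block and leaving out libraries. Levels are CPM, with a prior count of 1 in log2 CPM. Positions and exonic lengths came from GENCODE M21 on GRCm38, the assembly of mm10, and 204 of 205 listed symbols matched. Promoter sequences are from RefSeq. Amino acid sequences were not used here. The values of 1 neighbouring gene are not reported here.

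The 10 genes and the other lists were chosen with earlier results of these data known. The rule for naming took the 10, the 4 highest genes of each list, list genes without overlap of groups and with a 4-fold difference of means, the nearest neighbours, and the 10 genes most alike. Of the 4 highest genes, those of the erythroid, liver and multiciliated lists and some of the fetal ovary list are given only in the sums and medians. A few others of the lists, and the genes that overlap the 10, were named after their values were seen. No library repeated another of its group, since the chi-square of their counts was at least 19.3 for each degree of freedom. Intervals and floors cover counting error only.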

Additional observations from a re-analysis of the deposited data

How the results depend on the processing

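All 130 log2 fold changes computed for the 10 genes over the settings that could give one were negative. With at least 10 counts required in every library none of the 10 genes was tested, so this setting gave no value. Leaving out one library moved the median of the 10 genes between -4.64 and -3.61, the latter without control replicate 1, and with replicates 1 and 2 only Odf1 had a log2 fold change of -5.48.

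The edgeR test on 6 libraries gave 0 genes past an adjusted p of 0.05 and 1254 past an unadjusted one. The adjusted count was 192 in DESeq2, 120 with every gene of at least 1 count tested, 2 with the replicate block, 5607 in replicates 1 and 2 only, and leaving out one library 0 to 1064, the largest without control replicate 3. For the other lists together, 0 of 161 tested genes (49 at an unadjusted p under 0.05) became 27, 20, 2 and 76 under these settings, and 0 to 38 with one library left out. For the neighbours, 0 became 1 with DESeq2, 5 with replicates 1 and 2 only, and 0 to 2 with one library left out, the largest of both again without control replicate 3. The cause was not tested. The replicate numbers did not pair the libraries (correlations of the deviations -0.07, -0.02 and -0.04). Of the 10 most alike genes, 8 were shared with a prior count of 0.25. The counts of 0 to 19 per gene in exposed libraries limit the precision of every fold, and the intervals given for Smcp and Capza3 do not cover the spread between pools.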
